A study of Rattus norvegicus with 3 samples.

Results

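Zinc finger genes were taken from the RNA table by their names: every entry whose symbol begins with ZFP, ZNF, ZBTB or ZSCAN followed by a digit. The rule found 256 of the 12771 entries, 210 named ZFP, 35 named ZBTB, 6 named ZSCAN and 5 named ZNF. ZFP is the rodent and ZNF the human stem of the same kind of name, so these classes separate nomenclature rather than biology, whereas ZBTB and ZSCAN name proteins that join their fingers to a BTB or a SCAN domain. Of 472 protein-coding rat genes in RefSeq with such a name, 253 were among the entries and the other 219 were not analysed here.

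The RNA came from the spinal cord of female Sprague Dawley rats that were 3 months old. All rats had a laminectomy at T9. The No-SCI animals had nothing further, and the SCI animals also received a moderate to severe contusion from an impactor. At 24 h a piece of cord just rostral to the lesion, at T8, was digested in the cold with a protease from a bacterium, the cells were spun down, and the supernatant, which the study treats as enriched for axons, was sequenced after removal of ribosomal RNA. No genotype, transgene or drug distinguished the groups. By its labels the series has 2 libraries of No-SCI and 1 of SCI, while the methods of the study state 2 animals per condition. The table holds 1 authors' group value per condition for each gene, in FPKM, a fragment count scaled to transcript length and library size. There is no value per animal, so no SD, interval or test could be computed from these values, the differences have no replicate check, and the depth behind each value is unknown. In bulk RNA of this kind, fewer cells or processes of a type and less RNA in each cannot be told apart.

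Most of these proteins bind DNA through C2H2 fingers, short folds in which a pair of cysteines and a pair of histidines hold a zinc ion and a few residues read the bases. The largest group carries a KRAB box at the front, which recruits TRIM28 and, with it, the histone methyltransferase SETDB1 and HP1 proteins to silence chromatin, above all at transposable elements. BTB members form dimers and recruit NCOR and HDAC corepressors, and SCAN members pair with each other through the SCAN domain. In the cord, several single members are known for glial and neuronal differentiation, among them ZFP24, ZFP488 and ZBTB20.

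The label of transcription factors did not hold for every entry found by name. ZFP36, ZFP36L1 and ZFP36L2 have CCCH fingers that bind AU-rich RNA and bring the CCR4-NOT deadenylase to it. ZBTB8OS is archease, a cofactor of the tRNA ligase, and owes its name to lying opposite ZBTB8. Some others, such as ZFP598, a ubiquitin ligase that senses collided ribosomes, and ZFP622, a factor in assembly of the large ribosomal subunit, are finger proteins with roles outside transcription. In the other direction, ZFP161 is an older name of ZBTB14 and was counted as ZFP. RefSeq matched 254 of the 256 names by symbol and 1 by synonym, and ZFP17 was not matched.

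Zinc finger entries stood mostly lower after SCI. Of the 256, 191 (74.6%) had a smaller value in SCI than in No-SCI and 65 (25.4%) a larger one, against 56.3% smaller and 43.7% larger among all entries. Their log2 ratios (SCI over No-SCI) had a median of −0.44, and the middle 50% of entries lay between −0.76 and 0.0066. For all entries the median was −0.12. When all ratios are shifted up by 0.12 so that this median becomes 0, 17 of the 191 smaller values turn into larger ones and 174 members remain below the median of all entries.

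**Figure D1:**
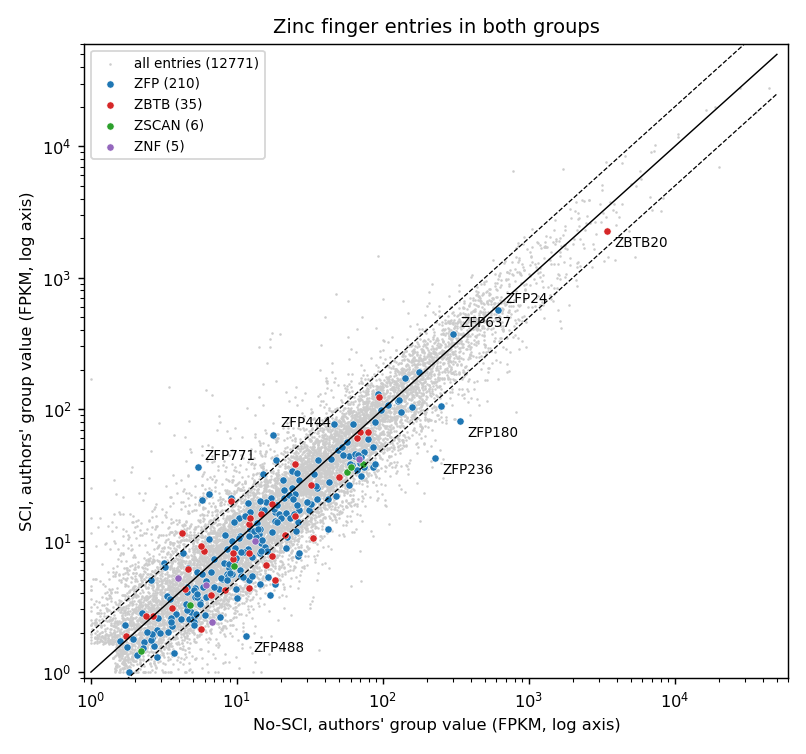
Authors' group value in No-SCI (horizontal, FPKM, log axis) against SCI (vertical, FPKM, log axis) for all 12771 entries in grey and the 256 zinc finger entries coloured by name class. The solid line marks equal values and the dashed lines a 2-fold difference. Most coloured points lie below the solid line, ZBTB20 is far the most abundant, and ZFP236, ZFP180 and ZFP488 lie well below the lower dashed line while ZFP771 and ZFP444 lie above the upper one.

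At a 2-fold difference, used here in place of a test, 39 members (15.2%) were lower and 10 (3.91%) were higher after SCI. Among all entries 12.1% were at least 2-fold lower and 7.96% at least 2-fold higher. The lower share of members was a little above its background and the higher share below it. The same held with 1 subtracted from every value, which gave 57 members lower and 13 higher against 16.2% and 10.4% of all entries, and after median centring, which gave 33 lower and 13 higher against 9.59% and 9.55%. At 1.5-fold 102 members (39.8%) were lower, against 26.3% of all entries, and 18 (7.03%) were higher, against 16.9%. At 3-fold 12 members (4.69%) were lower, against 3.27% of all entries, and 4 (1.56%) were higher, against 3.17%. The pattern was therefore a moderate downward displacement of many members rather than large differences in a few.

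The name classes differed in how far they were displaced. The 210 ZFP entries had a median log2 ratio of −0.45, with 159 lower and 51 higher. Of them, 32 (15.2%) were at least 2-fold lower and 8 (3.81%) at least 2-fold higher, against 12.1% and 7.96% of all entries. The 35 ZBTB entries had a median of −0.23, with 22 (62.9%) lower against 56.3% of all entries. By the median ratio of all entries the ZBTB class stood nearer the background. Of its 35 entries 19 (54.3%) lay below that median, against 145 (69%) of the 210 ZFP entries. At 2-fold this was not so on the lower side, where 6 ZBTB entries (17.1%) stood, against 15.2% of ZFP and 12.1% of all entries. On the higher side 2 ZBTB entries (5.71%) were nearer the 7.96% of all entries than the 3.81% of ZFP. Both ZBTB counts are small. All 6 entries named ZSCAN were lower, within a narrow range from −0.94 to −0.54 and with a median of −0.67, and none was past 2-fold. Protein domains were not read here, so SCAN genes under other names are not in this class. The values therefore do not describe SCAN proteins as a whole. Of the 5 ZNF entries 4 were lower, with a median of −0.42, and ZNF354B alone was past 2-fold. Whether the classes differ from each other could not be tested, and the last 2 classes are small. Leaving out the ZFP36 family and ZBTB8OS, a choice made after the values were seen, gave 39 lower and 9 higher entries past 2-fold and a median of −0.45.

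**Figure D2:**
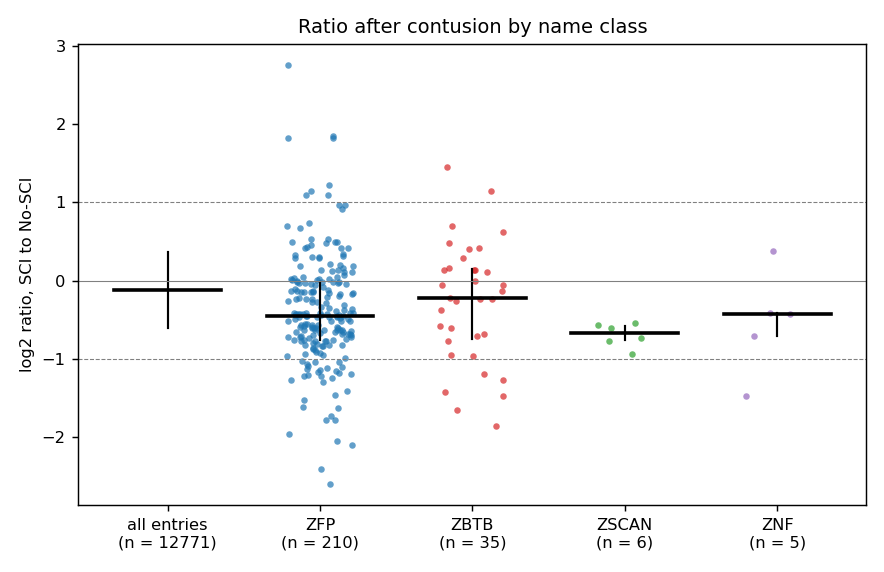
Log2 ratio of the authors' SCI to No-SCI value for each zinc finger entry, 1 point per entry, by name class, with the median (thick line) and the middle 50% (thin line) of each class and of all 12771 entries. Dashed lines mark 2-fold. Every class median lies below that of all entries, −0.12, and the 6 ZSCAN points all lie between −0.94 and −0.54.

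Since ratios depend on abundance, members were set beside entries of a like level. Zinc finger genes were scarce to moderate transcripts, whose median level was 12.5 FPKM without and 10.1 FPKM with contusion, against 17.2 and 15.6 FPKM for all entries. Below 5 FPKM in No-SCI, where all 2677 entries had a median log2 ratio of 0.13 and 17.9% were at least 2-fold higher, the 49 members had a median of −0.42 and 2 of them (4.08%) were at least 2-fold higher. At that level 2 members (4.08%) were at least 2-fold lower, against 6.16% of all entries. Between 5 and 20 FPKM the 120 members had a median of −0.42 against −0.20 for 4159 entries. Of these members 20 (16.7%) were at least 2-fold lower against 14.4%, and 8 (6.67%) at least 2-fold higher against 7.72%. Between 20 and 100 FPKM the 74 members had a median of −0.60 against −0.17 for 4012 entries, 14 (18.9%) were at least 2-fold lower against 13.3%, and 0 were at least 2-fold higher against 4.11%. At 100 FPKM or more the 13 members had a median of −0.14 against −0.09. The median of members was below that of all entries in each of the 4 levels, and this was also so when the levels were set by the mean of both groups, a setting added with the values known, which gave medians of −0.49, −0.42, −0.46 and −0.14 for members against −0.14, −0.19, −0.11 and 0.04 for all entries. The shares past 2-fold depended more on how levels were set. With a mean between 20 and 100 FPKM, 4 members (5.97%) were at least 2-fold higher against 6.32% of all entries. At the same level 9 (13.4%) were at least 2-fold lower against 11.6%.

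**Figure D3:**
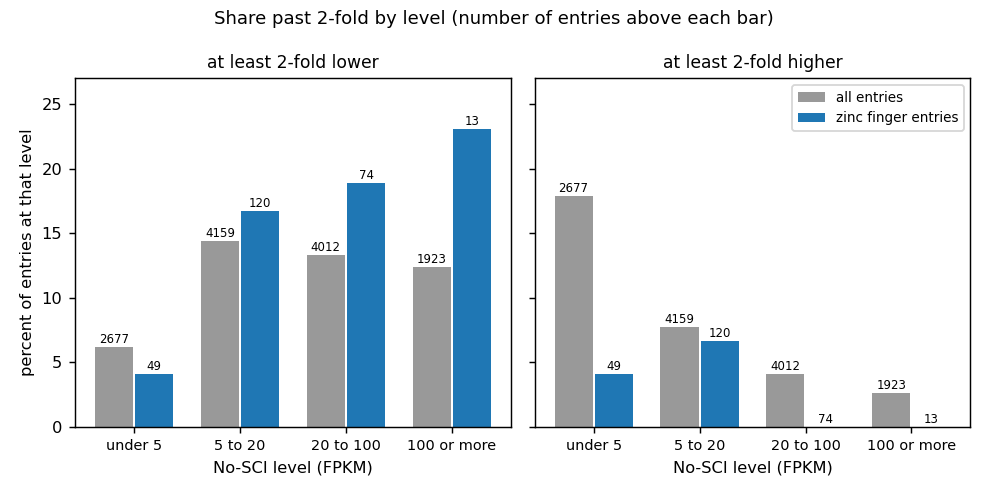
Share of entries at least 2-fold lower (left) and at least 2-fold higher (right) after SCI by the No-SCI level in FPKM, for all entries in grey and zinc finger entries in blue, with the number of entries above each bar. Below 5 FPKM 17.9% of all entries and 4.08% of zinc finger entries were at least 2-fold higher, and above 20 FPKM no zinc finger entry was. With levels set by the mean of both groups, which is not drawn, 5.97% of zinc finger entries and 6.32% of all entries were so between 20 and 100 FPKM.

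The most abundant member by far was ZBTB20, a BTB repressor known for the identity of hippocampal neurons and the formation of astrocytes. It had 3426 FPKM in No-SCI, rank 33 of all entries, and 2258 FPKM in SCI, rank 62, a log2 ratio of −0.60. ZBTB20 made up most of the summed ZBTB value of 4137 FPKM in No-SCI. The next members were of the ZFP class. ZFP24, which oligodendrocytes need to mature and myelinate, had 613 FPKM in No-SCI and 566 FPKM in SCI, a log2 ratio of −0.12 that becomes 0.0012 after median centring. ZFP637 had 304 FPKM in No-SCI and 372 FPKM in SCI, and ZFP414 had 176 and 193 FPKM. These 3 had log2 ratios from −0.12 to 0.29. Other abundant members were far lower after SCI. ZFP180 had 337 FPKM in No-SCI, rank 596, and 81.3 FPKM in SCI, rank 2260. ZFP317, picked after its values were seen, had 251 and 106 FPKM, a log2 ratio of −1.25, and ZFP236, given below, was also above 200 FPKM in No-SCI. Levels of different genes can be compared here because FPKM is scaled to transcript length, though the way entries of a symbol were combined is not stated.

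The lowest ratios among members with a mean of at least 5 FPKM were those of ZFP488, ZFP236, ZFP606 and ZFP180. ZFP488, a partner of OLIG2 in oligodendrocyte differentiation, had 11.5 FPKM in No-SCI and 1.88 FPKM in SCI, 6.10-fold lower and a log2 ratio of −2.61. Its SCI value lies near the lowest value of the table, 1, so the size is uncertain, with a log2 ratio of −3.57 when 1 is subtracted from every value and −2.11 when 1 is added. ZFP236 had 228 FPKM in No-SCI and 42.6 FPKM in SCI, a log2 ratio of −2.42. ZFP606 had 16.8 and 3.89 FPKM, which is −2.11 as a log2 ratio, and ZFP180 stood at −2.05 on that scale. ZFP180 and ZFP236 are the only members above 200 FPKM in No-SCI that were over 4-fold lower.

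Among ZBTB genes the lowest ratios were those of ZBTB6, ZBTB4, ZBTB11 and ZBTB25. ZBTB6 had 18.2 FPKM in No-SCI and 5.01 FPKM in SCI, a log2 ratio of −1.86. ZBTB4, a Kaiso relative that binds methylated CpG, had 33.0 and 10.5 FPKM, a log2 ratio of −1.66. ZBTB11 and ZBTB25 had log2 ratios of −1.47 and −1.27. The other methyl-CpG binders of this group went different ways, since ZBTB33 (Kaiso) had 8.23 and 4.23 FPKM, a log2 ratio of −0.96, and ZBTB38 had 5.95 and 8.28 FPKM, a log2 ratio of 0.48. Neither was past 2-fold, though ZBTB33 was at −1.16 with 1 subtracted from every value.

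The highest ratios were those of ZFP771, ZFP444, ZFP787 and ZFP618, all scarce or moderate transcripts before injury. ZFP771 had 5.38 FPKM in No-SCI and 36.4 FPKM in SCI, 6.76-fold higher and a log2 ratio of 2.76. ZFP444 had 17.8 and 64.1 FPKM, ZFP787 had 6.43 and 22.7 FPKM, and ZFP618 had 5.76 and 20.3 FPKM, with log2 ratios of 1.85, 1.82 and 1.82. These 4 were over 3-fold higher, and the remaining 6 of the 10 members past 2-fold lay between 1.10 and 1.45. Among them were the BTB genes ZBTB7C, with 4.20 FPKM in No-SCI and 11.5 FPKM in SCI, and ZBTB16 (PLZF), a repressor that keeps progenitor cells undifferentiated, with 9.09 and 20.1 FPKM. Their log2 ratios were 1.45 and 1.15. ZFP956, ZFP26, ZFP580 and ZFP36L1 complete the 10.

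**Figure D4:**
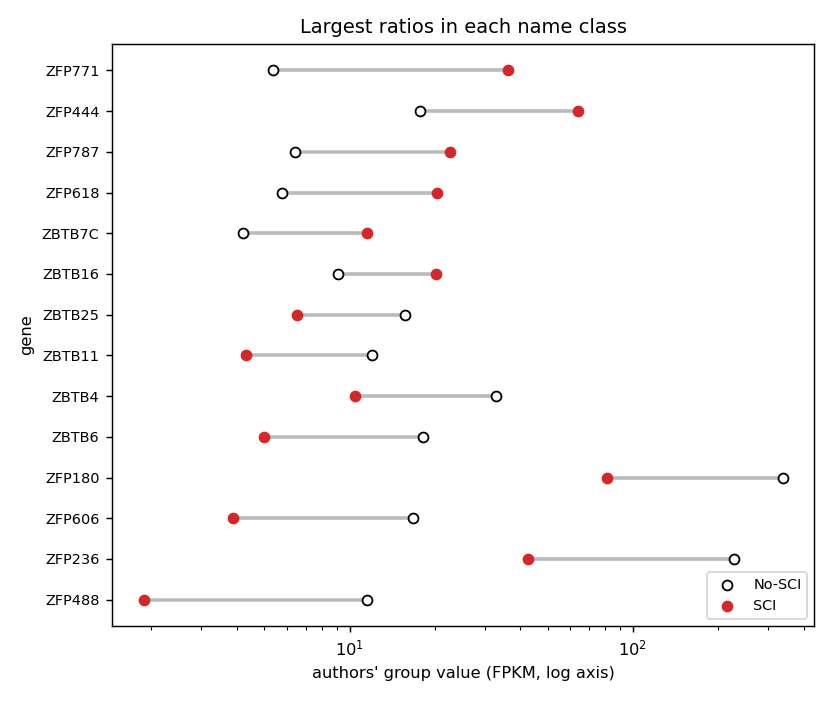
Authors' group value (FPKM, log axis) in No-SCI (open circles) and SCI (red circles) for the 14 members with the largest ratios in each direction among those past 2-fold with a mean of at least 5 FPKM, up to 4 for each name class and direction. The ZSCAN and ZNF classes have none. ZFP236 and ZFP180 start above 200 FPKM, and all 6 genes that were higher after SCI start below 20 FPKM.

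Promoters are shown for the ends of the range, the 4 highest and the 4 lowest ratios among members past 2-fold whose mean reached 5 FPKM and whose promoter RefSeq gave. RefSeq (GRCr8) gave a promoter for 213 of the 256 members, and the 250 bases before the annotated start were read 5′ to 3′ on the strand of the gene. Capitals mark the motifs searched on both strands. The GC box was searched as GGGCGG, the ETS motif as CCGGAAG, the core of the CREB motif as TGACGT and the AP-1 motif as TGANTCA. The TATA box was searched as TATAAA, the NRF1 motif as GCGCATGC and the CCAAT box by its name. None of these holds another, but neighbouring matches can share letters, as they do in ZFP771. Genes higher after SCI come first: ZFP771 at chr1:191294280-191294529 (plus strand), ZFP444 at chr1:76761451-76761700 (minus strand), ZFP787 at chr1:76791579-76791828 (plus strand) and ZBTB7C at chr18:71716399-71716648 (plus strand). Of the genes lower after SCI, ZFP488 lies at chr16:9299929-9300178 (minus strand), ZFP236 at chr18:78347225-78347474 (minus strand), ZFP606 at chr1:82054198-82054447 (plus strand) and ZFP180 at chr1:88780092-88780341 (plus strand). For ZFP606 the first of 6 listed starts is shown, and it holds none of the motifs.
ZFP771: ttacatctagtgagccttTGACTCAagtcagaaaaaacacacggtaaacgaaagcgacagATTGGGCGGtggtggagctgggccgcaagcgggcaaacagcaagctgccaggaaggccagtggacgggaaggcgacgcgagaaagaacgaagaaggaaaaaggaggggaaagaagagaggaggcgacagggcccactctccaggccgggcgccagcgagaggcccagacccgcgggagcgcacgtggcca
ZFP444: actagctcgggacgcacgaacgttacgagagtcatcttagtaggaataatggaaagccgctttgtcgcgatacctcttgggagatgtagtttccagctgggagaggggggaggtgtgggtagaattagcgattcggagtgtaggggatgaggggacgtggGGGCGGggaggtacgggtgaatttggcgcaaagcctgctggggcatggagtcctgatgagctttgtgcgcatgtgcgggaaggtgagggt
ZFP787: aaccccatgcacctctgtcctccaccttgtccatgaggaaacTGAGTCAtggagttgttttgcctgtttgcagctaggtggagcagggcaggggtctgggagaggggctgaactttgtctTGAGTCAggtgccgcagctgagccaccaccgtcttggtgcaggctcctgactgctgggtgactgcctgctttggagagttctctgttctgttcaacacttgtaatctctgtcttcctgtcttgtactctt
ZBTB7C: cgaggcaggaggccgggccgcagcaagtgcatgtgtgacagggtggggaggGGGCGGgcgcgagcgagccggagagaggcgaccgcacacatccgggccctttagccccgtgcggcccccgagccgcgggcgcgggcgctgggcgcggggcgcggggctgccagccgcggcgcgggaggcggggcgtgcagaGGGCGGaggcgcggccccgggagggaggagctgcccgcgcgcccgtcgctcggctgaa
ZFP488: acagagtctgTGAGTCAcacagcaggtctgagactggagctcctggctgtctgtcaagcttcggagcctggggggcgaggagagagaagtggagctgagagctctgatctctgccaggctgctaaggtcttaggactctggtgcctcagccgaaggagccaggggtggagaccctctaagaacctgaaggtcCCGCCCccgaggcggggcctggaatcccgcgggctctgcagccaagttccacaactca
ZFP236: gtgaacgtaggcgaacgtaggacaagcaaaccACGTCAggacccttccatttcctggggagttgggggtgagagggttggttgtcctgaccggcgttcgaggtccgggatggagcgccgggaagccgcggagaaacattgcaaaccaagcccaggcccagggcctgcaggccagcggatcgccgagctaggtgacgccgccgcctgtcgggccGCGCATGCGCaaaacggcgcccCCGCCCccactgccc
ZFP606: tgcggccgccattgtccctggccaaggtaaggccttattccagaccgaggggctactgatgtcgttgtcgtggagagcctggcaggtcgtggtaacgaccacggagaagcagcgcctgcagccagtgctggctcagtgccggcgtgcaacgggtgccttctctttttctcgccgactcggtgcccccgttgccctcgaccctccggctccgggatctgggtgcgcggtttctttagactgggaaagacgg
ZFP180: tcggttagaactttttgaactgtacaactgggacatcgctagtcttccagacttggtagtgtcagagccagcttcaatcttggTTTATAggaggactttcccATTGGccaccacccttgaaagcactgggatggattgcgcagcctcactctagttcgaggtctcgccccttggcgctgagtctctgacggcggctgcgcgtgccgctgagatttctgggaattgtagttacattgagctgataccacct

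Member promoters as a group were richer in CpG than RefSeq promoters at large, with a median of 14 CpG in 250 bases against 6 for 27457 promoters. Of 213 members 103 (48.4%) held a GC box, against 32.4%. The 27457 promoters also cover genes without an entry here, so they are not a background of genes found in these samples. How members compare with the promoters of the other entries was not tested. The ETS letters were in 39 (18.3%) against 7.74%, and the NRF1 letters in 13 (6.1%) against 2.38%. The AP-1 letters were in 11 members (5.16%) against 6.36% of all promoters. Among the 8 promoters of members at least 2-fold higher, 5 held CCAAT, 4 a GC box, 3 the AP-1 letters and 1 each the ETS and TATA letters. Among the 31 of members at least 2-fold lower, 14 held a GC box, 11 CCAAT, 5 each the ETS and TATA letters, 2 each the CREB and NRF1 letters and 1 the AP-1 letters. The AP-1 letters stood before ZFP771, ZFP787 and ZFP36L1, which were higher, and before ZFP488, which was lower. With 8 promoters in the first set these counts only describe it. A match is a description of letters, and nothing about binding follows from it or from its lack.

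Genes of this kind often lie in tandem clusters, and near-identical copies can share reads, so values of neighbouring paralogs are uncertain. In RefSeq gene order 76 members lay directly beside another member, in 32 runs of up to 5 genes, and 178 had no member beside them. Both sets had nearly the same median log2 ratio, −0.42 and −0.44. RefSeq genes of such a name without an entry here were not counted as members. Some of the 178 may lie beside one, so the sets do not separate clustered from isolated genes. Of the 44 adjacent pairs 25 were lower in both genes, 5 were higher in both, and the others were split. Since 55 of the 76 members were lower, pairs lower in both would be common without any link between neighbours. Whether neighbours go together was not tested. ZFP444 and ZFP787 are neighbours and had almost equal ratios, 1.85 and 1.82. ZFP2 and ZNF354B, also neighbours, were both at least 2-fold lower, with log2 ratios of −1.19 and −1.48. In other runs neighbours were far apart, as in the 5 genes ZFP786, ZFP398, ZFP282, ZFP212 and ZFP956, which ranged from −1.41 for ZFP786 to 1.10 for ZFP956. ZFP236 at −2.42 lies beside ZFP516 at 0.04. These pairs were picked after their values were seen.

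The 5 members grouped under glia were all lower after SCI, as were 74.6% of all members and 56.3% of all entries. Besides ZFP488, ZBTB20 and ZFP24 above, ZFP536, a repressor of neuronal differentiation, had 23.2 FPKM in No-SCI and 15.0 FPKM in SCI, a log2 ratio of −0.63, and ZFP276 had 15.0 and 8.45 FPKM. The median of these 5 was −0.63, 1 of them (ZFP488) was past 2-fold, and the direction of ZFP24 turns under median centring. Oligodendrocyte markers were also mostly lower. Of 14 such markers 13 were analysed, 8 (61.5%) were at least 2-fold lower and 0 at least 2-fold higher, their median log2 ratio was −1.23, and their summed value was 52805 FPKM in No-SCI and 30410 FPKM in SCI, or 8605 and 2761 FPKM without MOBP, which made up most of it. For astrocytes 6 of 10 markers were analysed, 4 of them at least 2-fold lower, with a median of −1.16 and a summed value of 8194 and 3341 FPKM, or 193 and 112 FPKM without NDRG2, but GFAP, AQP4, SLC1A3 and ALDOC were not analysed here. The part of these cell types in the values of the glial members was not tested.

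Of 7 members grouped under neuronal development, 5 were lower and 2 higher, with a median of −0.76. Among all members 74.6% were lower, so this count is near that share. The 2 higher ones were ZBTB16 and ZBTB46. ZFP521, which drives early neural commitment, had 12.6 FPKM in No-SCI and 5.42 FPKM in SCI, a log2 ratio of −1.22. ZFP423, a factor of cerebellar development, had 25.3 and 11.8 FPKM, a log2 ratio of −1.10. These 2 were past 2-fold, though ZFP423 was at −0.99 after median centring. ZFP365, a binding partner of DISC1, at −0.94 and ZFP462 at −0.76 were not, though ZFP365 was at −1.31 with 1 subtracted from every value. ZBTB18, a repressor of cortical development, was nearly level, with 78.9 and 67.2 FPKM. ZBTB16 is given above, and ZBTB46, a marker of classical dendritic cells, had 4.59 and 6.04 FPKM. The name of the group does not describe ZBTB46 well, and the counts and the median of the group include it. Of 11 neuronal markers 9 were analysed, with a median log2 ratio of −0.81, 4 of them at least 2-fold lower and 0 at least 2-fold higher, and a summed value of 1840 FPKM in No-SCI and 1696 FPKM in SCI. Without GAP43, a growth cone protein that made up most of it, the sum was 565 and 291 FPKM. The part of neuronal RNA in these members was not tested.

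The ZFP36 family of RNA-binding proteins lay above level, unlike most members. ZFP36 (tristetraprolin), an early response gene that shortens the life of cytokine mRNAs, had 23.98 FPKM in No-SCI and 33.9 FPKM in SCI, a log2 ratio of 0.50. ZFP36L1 had 9.05 and 21.0 FPKM, a log2 ratio of 1.22, and was past 2-fold. ZFP36L2 had 14.9 and 17.1 FPKM, a log2 ratio of 0.20. All 3 were higher, also under each scaling, since every scaling tried moves ratios upward. Among all entries 43.7% were higher and 7.96% at least 2-fold higher, and 3 genes are few. Among 24 of 29 listed CCCH and mRNA decay genes there was no such direction, with 12 higher and 12 lower, a median log2 ratio of 0.0024, and only ZC3H7B past 2-fold, with 105 FPKM in No-SCI and 36.3 FPKM in SCI.

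Members with roles in ubiquitin, ribosome or RNA pathways were split, 6 higher and 5 lower of 11, with a median of 0.01. Among all entries 43.7% were higher and 56.3% lower, and 12.1% were at least 2-fold lower. ZFP622 was level, with 97.4 FPKM in No-SCI and 98.1 FPKM in SCI. ZFP326, a part of the DBIRD complex that couples transcription to splicing, had 92.2 and 130 FPKM, a log2 ratio of 0.50, and ZFP598 had 8.28 and 11.1 FPKM, a log2 ratio of 0.43. ZFP638, a nuclear matrix protein that silences unintegrated retroviral DNA, was the member of this set past 2-fold, with 58.9 and 26.5 FPKM and a log2 ratio of −1.15. Of the factors that keep imprints, ZFP57 had 15.3 and 17.1 FPKM and ZFP445 had 19.96 and 14.9 FPKM, with log2 ratios of 0.16 and −0.42. Of the widely expressed regulators, ZFP148 was level at 108 and 107 FPKM, while ZFP219 had 85.1 and 51.4 FPKM and ZFP143, which activates housekeeping promoters, had 9.32 and 5.58 FPKM, with log2 ratios of −0.73 and −0.74.

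The remaining BTB regulators were mostly close to level. ZBTB7A had 66.3 FPKM in No-SCI and 60.6 FPKM in SCI. ZBTB7B (ThPOK), known from T cell lineage choice, had 12.1 and 8.06 FPKM, a log2 ratio of −0.58. ZBTB17 (MIZ1), a partner of MYC, and ZBTB1 both had a log2 ratio of 0.13. Over the 10 BTB regulators 6 were lower and 4 higher, with 1 past 2-fold in each direction, ZBTB4 and ZBTB7C, and a median of −0.18. Among all entries 56.3% were lower, 12.1% at least 2-fold lower and 7.96% at least 2-fold higher, so these counts are near the background. The 4 largest ZSCAN values were those of ZSCAN26, with 73.3 and 38.2 FPKM, ZSCAN21, with 60.5 and 36.4 FPKM, ZSCAN12, with 56.7 and 33.3 FPKM, and ZSCAN20, with 9.58 and 6.45 FPKM. Their log2 ratios were −0.94, −0.73, −0.77 and −0.57. Of the ZNF entries the most abundant was ZNF740, with 68.7 FPKM in No-SCI and 42.0 FPKM in SCI, and the single higher one was ZNF48, with 3.97 and 5.16 FPKM.

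The corepressors that the members recruit were not displaced as a group by their medians. All 22 genes of the KRAB corepressor list were analysed, 11 higher and 11 lower, with a median log2 ratio of −0.08 that becomes 0.03 after median centring. TRIM28, the KRAB corepressor itself, had 9.55 FPKM in No-SCI and 19.2 FPKM in SCI, 2.01-fold higher. SETDB1 went the opposite way, with 19.8 and 8.13 FPKM and a log2 ratio of −1.29. CBX1, an HP1 protein, had 13.2 and 38.1 FPKM, and HDAC2 had 3.99 and 10.6 FPKM, with log2 ratios of 1.53 and 1.41. TRIM28 and SETDB1, which act in the same complex, were thus at least 2-fold apart from level in opposite directions, while the most abundant HP1 gene, CBX5, had 574 and 640 FPKM. In all 3 (13.6%) of the list were at least 2-fold higher and 1 (4.55%) at least 2-fold lower, against 7.96% and 12.1% of all entries. The counts past 2-fold thus leaned upward, but they are small and TRIM28 was only just past the threshold. Of the BTB corepressor list 14 of 15 genes were analysed, 8 higher and 6 lower, with a median of 0.03 and only HDAC5 past 2-fold, with 76.6 and 34.5 FPKM.

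The lists of relatives with other names differed in direction. In a list of SCAN, KRAB, BTB and other finger genes outside the naming rule 23 of 33 were analysed. Of these, 16 were lower and 7 higher, with a median log2 ratio of −0.47. At 2-fold 4 (17.4%) were lower and 3 (13%) higher, against 12.1% and 7.96% of all entries. The higher share is above that of all entries, unlike that of the members. ZKSCAN1, whose gene is also the source of a well known circular RNA, had 30.03 FPKM in No-SCI and 8.96 FPKM in SCI, a log2 ratio of −1.74, and PEG3, an imprinted gene, had 32.4 and 11.1 FPKM, a log2 ratio of −1.55. ZFAT, ZFPM1 and HIC1 were at least 2-fold higher, at 1.45, 1.62 and 1.22, the last from a No-SCI value of 1.09 FPKM. In a list of other C2H2 factors, such as EGR, KLF, ZIC and SNAI factors, 48 of 68 were analysed, 26 higher and 22 lower, with a median of 0.16. Of these, 14 (29.2%) were at least 2-fold higher and 7 (14.6%) at least 2-fold lower, against 7.96% and 12.1% of all entries. Most of the 14 stood below 5 FPKM before injury, a level at which 17.9% of all entries were at least 2-fold higher. Unlike the members, this list was not set beside entries of a like level, so the part of level in its shares was not tested. The immediate early factor EGR1 had 10.3 and 28.1 FPKM, KLF4 had 3.81 and 11.5 FPKM, KLF5 had 3.06 and 17.5 FPKM, and SNAI1, a repressor of epithelial genes, had 4.85 and 22.4 FPKM. OSR1, a factor of fibroblasts and other mesenchyme, had 3.43 FPKM in No-SCI and 148 FPKM in SCI, a log2 ratio of 5.43. BCL11A and SALL2, both known from neurons, were at least 2-fold lower, at −1.37 and −1.58. ZEB1 was the most abundant of this list, with 1924 and 1245 FPKM.

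**Figure D5:**
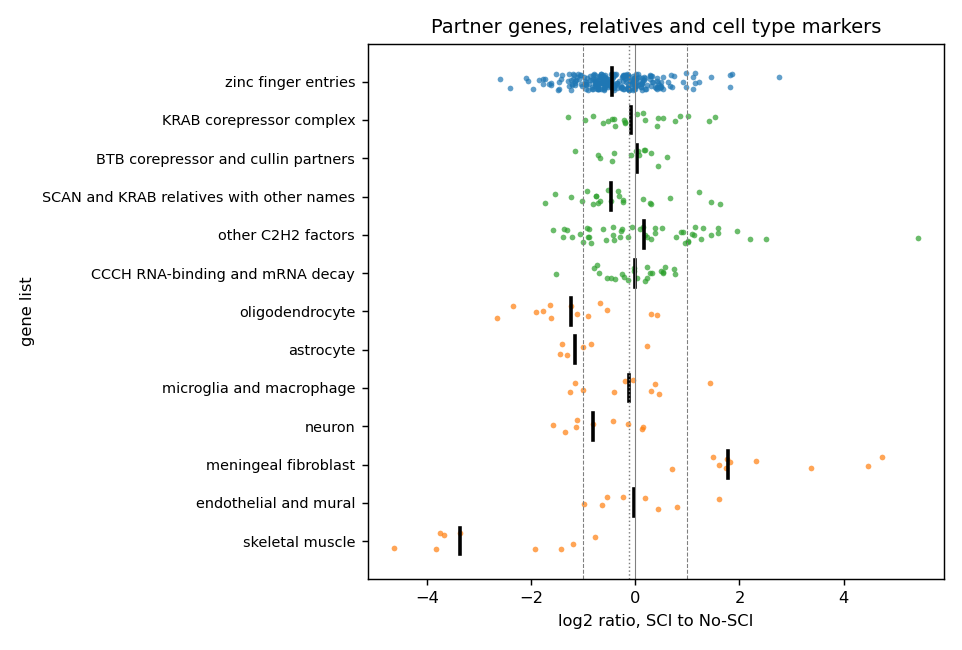
Log2 ratio of SCI to No-SCI for zinc finger entries (blue), partner and related genes (green) and cell type markers (orange), 1 point per gene, with the median of each list as a thick line. Dashed lines mark 2-fold and the dotted line the median of all entries, −0.12. The zinc finger entries have a median of −0.44. The list labelled SCAN and KRAB relatives, which also holds BTB and other finger genes, has a median of −0.47. The corepressor lists lie near 0, and the meningeal fibroblast and skeletal muscle markers lie at 1.79 and −3.37.

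Markers of other cell types also differed between the groups. All 10 meningeal fibroblast markers were analysed and 9 were at least 2-fold higher, with a summed value of 110 FPKM in No-SCI and 851 FPKM in SCI. Of 10 skeletal muscle markers 9 were analysed and 8 were at least 2-fold lower, with a summed value of 427 and 45.1 FPKM. The 10 microglia and macrophage markers had a median of −0.12 and summed values of 1085 and 1130 FPKM, but CSF1R, CX3CR1 and P2RY12 were at least 2-fold lower and CD68 was at least 2-fold higher. The 8 endothelial and mural markers analysed had a median of −0.03, which becomes 0.09 after median centring, and summed values of 61.1 and 57.2 FPKM. The part of these cell types in the zinc finger values was not tested.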

How the data were processed

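RNA from the supernatant of digested rat spinal cord was compared between No-SCI and SCI. Per the labels and the methods of the study, ribosomal RNA was removed, stranded total RNA libraries were made, reads were downsampled to the smallest library, aligned to rn6 with STAR 2.5.4b and compared with Cuffdiff (version 1.3.0 in the submitters' processing notes). The values used are the authors' deposited FPKM, upper quartile normalized, with 1 pooled value per group and no counts, so depth is unknown. The deposited table also holds the authors' own comparison (p, q, fold change, log2 fold change and a significance flag), which was not used. No value lies below 1. Of the values between 1 and 2, 87.7% carry 6 decimals, against 40.2% of those between 2 and 3, so a constant of 1 may have been added before deposit, which would shrink the ratios of scarce genes. Entries per symbol may have been summed, which is not stated.

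The table has 12771 entries and 12758 symbols. Lists took the larger of both entries, by mean, for 13 symbols listed 2 times, and 0 members are listed more than once. Log2 ratios (SCI over No-SCI) carry no pseudocount. A ratio of at least 2-fold was counted as a difference. No test was run, because each group has 1 value. Members and lists were chosen with earlier results of these data known. Members named with values are the 4 most abundant of each name class, the 4 with the largest ratio in each direction per class among those past 2-fold with a mean of at least 5 FPKM, and members with a known role. The 12 lists hold 242 genes, 196 of them analysed. Genes of a list are named where they are past 2-fold or among its most abundant. Promoters and gene order are from RefSeq (GRCr8), which was used for no coordinates of the values. Where a gene has several starts, the first listed promoter was used. Steps were tested on simulated data, where 200 of 200 entries of 12771 made to differ were recovered. The shifts were set well past 2-fold with little noise. The test therefore checks the code and says nothing about how reliable the ratios of these data are. Alternatives were pseudocounts of 1 and 0.1, 1 subtracted, 3 scalings, a mean of at least 5 FPKM, other folds and the smaller of repeated entries. An alternative on C2H2 motifs in the protein was not run, since protein sequences were not used here. Python 3.11.15 with numpy 2.4.6, pandas 2.3.3 and matplotlib 3.10.9 was used. The number of measurement columns without a group was 0.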

Additional observations from a re-analysis of the deposited data

How the results depend on the processing

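The median log2 ratio of all members was −0.44 and stayed below 0 under each alternative run. Median centring gave −0.33 for all members, −0.33 for ZFP, −0.11 for ZBTB, −0.55 for ZSCAN and −0.31 for ZNF, and upper quartile scaling gave −0.34, −0.35, −0.12, −0.57 and −0.32. The number of members past the threshold was 18 higher and 102 lower at 1.5-fold and 4 higher and 12 lower at 3-fold. At 2-fold the other alternatives gave 9 to 13 higher and 31 to 57 lower. Of 64 named members, ZFP423 was no longer past 2-fold after median centring, and ZBTB33 and ZFP365 came past it with 1 subtracted. No other named member crossed 2-fold under the pseudocounts, scalings and filters run. ZBTB47, ZFP148, ZFP207 and ZFP24, all near level, turned direction after median centring, the first 3 of them also under upper quartile scaling, and ZFP148 also under total scaling. Scalings shift all ratios alike. Keeping only members with C2H2 motifs in their protein was not run. Leaving out a library was not possible, because the table holds 1 pooled value per group. No paired analysis was possible because the groups share no replicate number and the values are pooled. The depth behind these values is unknown, so no limit from counting can be given.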
